A study of Homo sapiens with 6 samples.

Results

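The genes described here encode the digestive enzymes of the lysosome, proteins of its membrane, the proton pump that acidifies it, and the MiT/TFE transcription factors. A list of 51 genes was used, and members were the probe sets whose single annotated gene is on that list. Of the 51 genes, 50 were measured, by 137 of the 54613 probe sets, among 19775 genes in all. GLB1, beta-galactosidase, has only a probe set that also names another gene, and no value is given for it. The members were 3 MiT/TFE factors, 30 hydrolases and their activators, 6 membrane proteins, and 12 subunits or accessory proteins of the V-ATPase.

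The parental cells were LP-1, a line from human multiple myeloma, and LP-1/Cfz is a single derivative of them that was grown out under rising doses of the proteasome inhibitor carfilzomib, to a final 12 nM. RNA was taken from 3 LP-1/Cfz samples after 1 week without drug and from 3 samples of parental LP-1 cells never selected in it, all in medium with 4% serum according to the labels, and each was hybridised to 1 Affymetrix human genome array. Both groups are of the same line, and neither was in drug when harvested, so that the comparison is of a selected line with its parent and not of acute drug exposure. The sources do not say whether the triplicates were separate cultures, and the p-values thus reflect no more than the spread among these arrays, which could be technical. The study compared the lines to find expression changes that accompany resistance to carfilzomib.

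Lysosomes break down glycans, lipids and proteins delivered by endocytosis and autophagy, the route by which cells clear protein aggregates that the proteasome does not degrade. Their hydrolases work at acid pH, which the V-ATPase maintains with a membrane-embedded V0 sector that carries protons and a cytosolic V1 sector that hydrolyses ATP. TFEB, TFE3 and MITF bind E-box sequences in the promoters of many lysosomal genes and are held in the cytoplasm when mTORC1 phosphorylates them. Antibody-secreting cells such as plasma cells and myeloma cells carry a heavy load of newly made protein, and the lysosome shares its clearance with the proteasome.

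Values are log2 values centred per probe set on a baseline that is not stated. Differences between arrays can therefore be read from them, but not the level of a gene, so that the plasma cell identity of the line could not be checked from levels of its markers. LP-1/Cfz replicate 3 stood apart, with an interquartile range of 0.338 over all probe sets against 0.230 to 0.264 on the other 5 arrays. On the 137 member probe sets LP-1 replicate 2 deviated as often. It was the array of its line farthest from the line's mean on 68, and LP-1/Cfz replicate 3 on 66. Each of the remaining arrays was farthest on 26 to 43. Among member probe sets the median standard deviation within groups was 0.0733, against 0.102 over all probe sets. Of 8 plasma cell markers 3 rose, with log2 differences of 0.27 to 0.39, and 2 fell by more, SLAMF7 at -2.17 and CD38 at -1.07. These are 62.5% of the 8, where 16.7% of all genes passed. Of 7 markers of T and NK cells 1 rose and 1 fell (28.6%). Of 6 measured myeloid markers none passed in limma (1 at an unadjusted p under 0.05), and of 7 stromal markers 1 fell (14.3%). Their part in the results was not tested. The arrays measured bulk RNA, in which fewer cells carrying a transcript and less of it per cell cannot be told apart.

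More members were higher than lower in LP-1/Cfz, but no role moved as a block. By limma, with a probe set or gene called at an adjusted p under 0.05, 22 member probe sets rose and 14 fell, while 101 did not pass. Over all probe sets 4.25% rose and 6.76% fell. When the probe sets of a gene were averaged, 14 of the 50 members rose, 6 fell and 30 did not pass. The background among all genes was 6.72% higher and 10.0% lower. The median log2 difference, LP-1/Cfz minus LP-1, was 0.06 over the members and 0.02 over all genes, so that the members as a whole were shifted little. The 3 LP-1/Cfz values did not overlap the 3 LP-1 values on 76 of the 137 member probe sets, or 55.5%, against 30.7% of all probe sets.

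Most changes were small. By probe set, glycosidases, sulfatases and membrane proteins had 4, 6 and 3 probe sets that rose and none that fell, while proteases had 1 that rose and 8 that fell, and the V0 sector of the pump had none that rose and 3 that fell. The median log2 difference of the protease probe sets was -0.21, that of the membrane proteins 0.17 and that of the sulfatases 0.17. These counts lean on genes with many probe sets, among them CTSB, CTSC and IDS. By gene, 1 of 9 proteases rose and 3 fell, with a median of 0.04 that lies on the other side of 0, 1 of 3 sulfatases rose, with a median of 0.02, 3 of 6 membrane proteins rose, with a median of 0.23, and 1 of 5 V0 genes fell. Differences between roles were not tested. Lipid hydrolases and their activators went both ways, with 6 probe sets higher and 3 lower. None of the 14 probe sets of the V1 sector passed in limma, where 3 had an unadjusted p under 0.05. Counted by gene, 19 members had at least 1 probe set that passed, 13 of them higher and 6 lower, and no member had probe sets called in opposite directions.

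**Figure D1:**
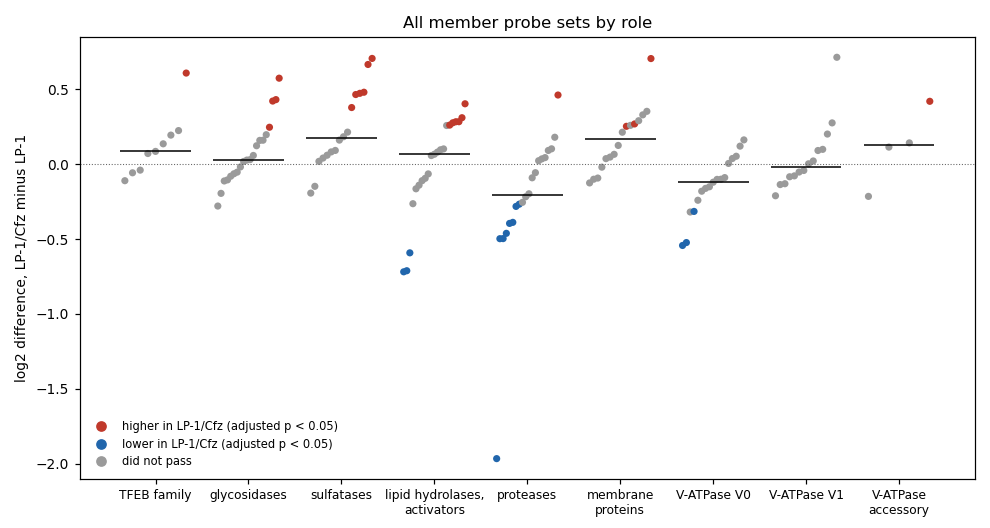
Log2 difference between the LP-1/Cfz and LP-1 means (vertical axis) of each of the 137 member probe sets, arranged by role along the horizontal axis. Red points rose, blue points fell and grey points did not pass at an adjusted p under 0.05, and horizontal lines are medians. Most points lie within 0.5 of 0, the protease median is at -0.21, and a single CTSZ probe set lies at -1.97.

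Of the MiT/TFE factors, TFEB rose. Its probe set 50221_at read 1.07, 1.08 and 1.01 on the LP-1/Cfz arrays and 0.43, 0.42 and 0.48 on the LP-1 arrays. The arrays of each line lay close together and the lines were far apart. The log2 difference was 0.61, or 1.53-fold (standard error 0.0592, adjusted p = 0.000628). The other TFEB probe set, 221866_at, gave 0.48, 0.64 and 0.53 against 0.31, 0.33 and 0.33. There too the lines did not overlap, but the difference of 0.22 did not pass (adjusted p = 0.0664). The mean of both rose by 0.42 (standard error 0.0491, adjusted p = 0.00107). TFE3, a close relative of TFEB, had 4 probe sets with differences from -0.06 to 0.19, and MITF, the melanocyte regulator, had 3 with differences from -0.11 to 0.14. None of these 7 passed in limma, the lowest adjusted p being 0.234, and none had an unadjusted p under 0.05.

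The factors of this family are known to bind the E-box letters CACGTG, most often with a T before them (TCACGTG), and MITF also binds TCATGTG. These letters were looked for on both strands in RefSeq promoter windows of the assembly GRCh38.p14, each running from 250 bases before to 50 bases after a gene's start. The table held 55 windows for 37 of the 51 listed genes. CACGTG stood in a window of 10 of the 37 genes (27.0%), against 8.77% of 27305 genes in the table. Counted by window, it stood in 18.2% of the 55, against 7.26% of 35116. The longer TCACGTG, each match of which is also a CACGTG match, stood in 9 of the 37 (24.3%) against 4.49%, and TCATGTG in 7 (18.9%) against 3.59%. For each of the 10 members with CACGTG, 30 bases around the match nearest to the gene's start are given as examples of the sequence that the family could read, on the strand of the gene, 5′ to 3′, with the E-box in capitals.
NEU1 (chr6:31862930-31862959, minus strand): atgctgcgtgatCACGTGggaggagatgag
CD63 (chr12:55729172-55729201, minus strand): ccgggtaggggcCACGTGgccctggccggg
LAMP1 (chr13:113297226-113297255, plus strand): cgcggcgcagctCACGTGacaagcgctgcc
MCOLN1 (chr19:7522598-7522627, plus strand): gggctaccgggtCACGTGaccgaggcacag
GAA (chr17:80101538-80101567, plus strand): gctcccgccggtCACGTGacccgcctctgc
CTSA (chr20:45891298-45891327, plus strand): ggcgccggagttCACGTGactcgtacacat
CTSD (chr11:1763957-1763986, minus strand): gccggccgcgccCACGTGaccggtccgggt
ARSB (chr5:78986101-78986130, minus strand): taattcaataagCACGTGactaaaggattt
ATP6V0B (chr1:43974909-43974938, plus strand): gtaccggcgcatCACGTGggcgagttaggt
ATP6V0D1 (chr16:67481199-67481228, minus strand): cccccttatggtCACGTGaggcgcttgcgc
In 9 of them a T stands before the E-box on 1 strand or the other, and CD63 is the exception. LAMP1, the most abundant protein of the lysosomal membrane, had 6 matches in its window. A match describes the letters and is not evidence that a factor binds there. The family is known to bind in promoters of many lysosomal genes, so that the higher share among members adds no evidence.

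Members with these letters mostly did not pass. Of the 10, NEU1 and CD63 rose and none fell, where 6.72% of all genes rose and 10.0% fell. Counts this small were not tested against those shares. The gene means of the 10 ranged from -0.08 for LAMP1 to 0.25 for CD63, with a median of 0.05. GAA, the acid alpha-glucosidase that digests glycogen, gave 0.03, and MCOLN1, the calcium channel of the lysosomal membrane, gave 0.07. CTSD, the main aspartic protease, gave 0.09. Of the 26 measured members whose windows lacked CACGTG, 9 rose and 3 fell, beside the same shares over all genes. Their median was 0.09, with a range from -0.97 for CTSZ to 0.46 for CTSH. TFEB and GLA belong to this group. Absence of a match says only that the letters are not in this window. The remaining 14 members had no window in the table, and 3 of them rose and 3 fell.

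**Figure D2:**
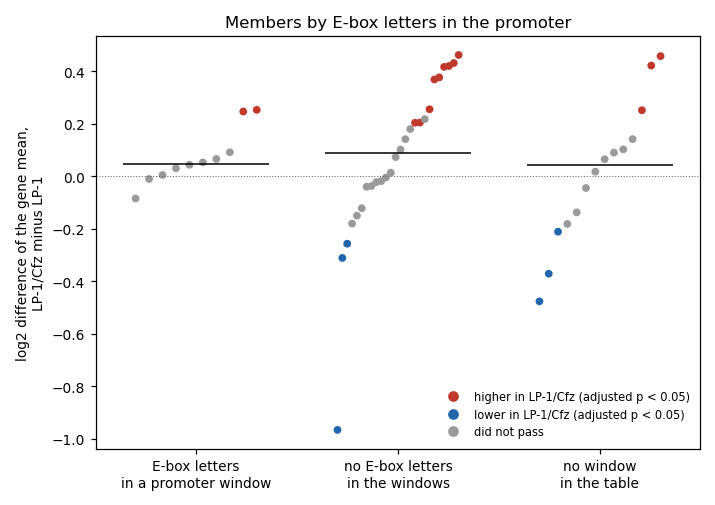
Log2 difference of the gene mean, LP-1/Cfz minus LP-1 (vertical axis), of members with CACGTG in a promoter window, of members without it, and of members with no window in the table. Colours mark the call as in the plot by role, and horizontal lines are medians. The 10 members with the letters lie between -0.08 and 0.25, within the range of the other members.

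Among the 11 glycosidases measured, which trim sugars from glycolipids and glycoproteins, 4 rose and none fell. GLA, the alpha-galactosidase deficient in Fabry disease, read -0.10, -0.13 and -0.13 on the LP-1/Cfz arrays and -0.55, -0.56 and -0.55 on the LP-1 arrays of its only probe set, 214430_at. The gap between the lines was many times the spread within either. GLA rose by 0.43, or 1.35-fold (standard error 0.0561, adjusted p = 0.00246), and passed with any 1 array left out. It did not pass where limma's test required a fold change above 1.2 (adjusted p = 0.23). The study itself displayed GLA among genes that rose on these arrays, so that its direction is not independent evidence.

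MANBA, the beta-mannosidase that removes the innermost mannose of N-glycans, read 0.28, 0.35 and 0.21 in LP-1/Cfz and -0.16, -0.17 and -0.09 in LP-1. All LP-1/Cfz arrays were above 0 and all LP-1 arrays below it, and the rise was 0.42 (standard error 0.0648, adjusted p = 0.00522). FUCA1, the alpha-L-fucosidase, read 0.85, 0.87 and 0.69 against 0.21, 0.21 and 0.27 on probe set 202838_at. That probe set rose by 0.57, or 1.49-fold (standard error 0.07, adjusted p = 0.00183). Its second probe set, 229137_at, did not follow, with values of -0.18, -0.14 and 0.07 against -0.00, 0.00 and -0.05 and a difference of -0.06 (adjusted p = 0.685). The call on FUCA1 thus rests on 1 of 2 probe sets.

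NEU1, the sialidase that starts the breakdown of sialylated glycans and needs CTSA as a partner, read 0.43, 0.40 and 0.35 in LP-1/Cfz and 0.14, 0.11 and 0.20 in LP-1. The lines did not overlap, and the rise was 0.25 (standard error 0.0614, adjusted p = 0.0403). It did not pass when LP-1/Cfz replicate 1 or 2 or any 1 LP-1 array was left out, with differences of 0.22 to 0.27 and adjusted p from 0.0888 to 0.135, nor after a further quantile normalization (0.21, adjusted p = 0.102). The other 7 glycosidases were GAA, GUSB, HEXA, NAGLU, GALC, IDUA and MAN2B1. Their 15 probe sets gave differences from -0.28 to 0.20 and none passed, the lowest adjusted p being 0.0716 for GUSB, the beta-glucuronidase.

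Of the 3 sulfatases, which strip sulfate from glycosaminoglycans and sulfatides, IDS rose and ARSA and ARSB did not pass. IDS, the iduronate 2-sulfatase that acts on heparan and dermatan sulfate, has 10 probe sets, of which 6 rose, by 0.38 to 0.71. The largest rise was on 206342_x_at, which read -0.09, -0.12 and -0.18 in LP-1/Cfz and -0.81, -0.88 and -0.82 in LP-1 (standard error 0.0611, adjusted p = 0.000341). On 212223_at, the single one of the 6 without a suffix that marks shared probes, the values were 0.10, 0.14 and 0.01 against -0.44, -0.30 and -0.45. Both probe sets separated the lines clearly, by 0.71 and 0.48. The 4 others gave 0.06 to 0.21 and did not pass, and the mean over all 10 rose by 0.37 (standard error 0.0651, adjusted p = 0.00705). The probe set with the smallest rise that passed, 202438_x_at at 0.38, lost its call without LP-1/Cfz replicate 1 or 2 or LP-1 replicate 1 or 3, with differences of 0.33 to 0.37 and adjusted p from 0.0709 to 0.1. IDS has a near-identical pseudogene copy beside it, so that its probe sets are uncertain as measures of IDS alone. Without probe sets whose suffix marks shared probes, the gene mean was 0.23 and did not pass (adjusted p = 0.14).

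The enzymes of sphingolipid breakdown went in different directions. ASAH1, the acid ceramidase that splits ceramide, fell on 3 of its 5 probe sets, by 0.59, 0.71 and 0.72. On 210980_s_at it read -0.73, -0.68 and -0.79 in LP-1/Cfz and 0.01, 0.01 and -0.08 in LP-1 (standard error 0.0628, adjusted p = 0.000377). On 1555419_a_at it read -0.47, -0.61 and -0.76 against 0.09, 0.12 and 0.10. The LP-1/Cfz arrays were below every LP-1 array on both, with more spread among them on the second. The other 2 probe sets were lower too, by values of -0.09 and -0.26, without passing (adjusted p = 0.474 and 0.0535), and the mean of the 5 fell by 0.48 (standard error 0.0532, adjusted p = 0.000838).

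SMPD1, the acid sphingomyelinase that makes ceramide from sphingomyelin, read 0.78, 0.84 and 0.77 in LP-1/Cfz and 0.46, 0.30 and 0.42 in LP-1 on 209420_s_at, a rise of 0.40 (standard error 0.067, adjusted p = 0.00745). The lines did not overlap on it. Its 3 other probe sets gave 0.06 to 0.26 and did not pass. The mean of the 4 rose by 0.20 (adjusted p = 0.0349), but did not pass without LP-1/Cfz replicate 1 or 2 or any 1 LP-1 array, with differences of 0.18 to 0.22 and adjusted p from 0.0884 to 0.12. Without probe sets of shared probes, which leaves out 209420_s_at, it was 0.08 (adjusted p = 0.478).

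GM2A, the activator that presents GM2 ganglioside to beta-hexosaminidase, rose on 5 of its 7 probe sets, by 0.26 to 0.31. On 209727_at, where the rise was largest, the values were 0.75, 0.86 and 0.83 in LP-1/Cfz and 0.55, 0.46 and 0.51 in LP-1 (standard error 0.0631, adjusted p = 0.0178). The 5 probe sets differed from each other by less than 1 standard error and the remaining 2 gave -0.06 and 0.08. Each of the 5 lost its call in 4 or 5 of the 6 fits that left out 1 array, at adjusted p up to 0.153, and all 5 kept it without LP-1/Cfz replicate 3 (adjusted p from 0.0278 to 0.046). The arrays concerned were LP-1/Cfz replicates 1 and 2 and all 3 LP-1 arrays. LIPA, the acid lipase, PSAP, the precursor of the saposins, and PPT1, a thioesterase, had 5 probe sets between -0.16 and 0.10, none of which passed.

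Proteases held the largest change among the members, 8 of the 14 probe sets that fell and 3 of the 6 genes that fell. CTSZ, a cathepsin with carboxypeptidase activity, read -2.21, -2.22 and -2.14 on the LP-1/Cfz arrays of 210042_s_at and -0.02, -0.61 and -0.04 on the LP-1 arrays. Every LP-1/Cfz array was at least 1.5 below the lowest LP-1 array, LP-1 replicate 2. On this probe set CTSZ fell by 1.97 on the log2 scale, or 3.91-fold (standard error 0.15, adjusted p = 0.000181), and the difference was -2.16 without LP-1 replicate 2. The other CTSZ probe set, 212562_s_at, read 0.05, 0.06 and 0.00 against -0.00, -0.03 and 0.04. On it the lines overlapped, with a difference of 0.04 (standard error 0.0584, adjusted p = 0.766). The 2 probe sets thus disagreed, and which of them follows the CTSZ transcript was not tested. The mean of both, -0.97, rests on the first.

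CTSB, a cysteine protease that is among the most abundant in lysosomes, fell on 4 of its 5 probe sets, by 0.28 to 0.50. On 227961_at it read -1.39, -1.36 and -1.39 in LP-1/Cfz and -0.92, -0.83 and -0.89 in LP-1 (standard error 0.0584, adjusted p = 0.00154). The arrays of a line agreed within 0.1 and the lines did not overlap. The fifth probe set gave -0.22 (adjusted p = 0.0891), and the mean of the 5 fell by 0.37 (adjusted p = 0.0019). Of the 4, 200838_at did not pass without LP-1/Cfz replicate 1 or any 1 LP-1 array (differences of -0.26 to -0.29, adjusted p from 0.0649 to 0.0877), nor 213275_x_at without LP-1 replicate 1 or 3 (-0.37 and -0.35, adjusted p = 0.0691 and 0.0697). After a further quantile normalization the CTSB differences shrank, to -0.08 on 200838_at and -0.23 on 213275_x_at, which no longer passed (adjusted p = 0.479 and 0.105), and to -0.29 on 213274_s_at, -0.32 on 227961_at and -0.19 for the gene mean, which did (adjusted p = 0.0338, 0.012 and 0.0355).

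CTSC, the dipeptidyl peptidase that activates serine proteases of granules, fell on 3 of its 4 probe sets, by 0.27, 0.39 and 0.50. On 225646_at it read -0.23, -0.19 and -0.28 in LP-1/Cfz and 0.31, 0.19 and 0.29 in LP-1 (standard error 0.0639, adjusted p = 0.00235). All LP-1/Cfz arrays were below 0 and all LP-1 arrays above it. The smallest of the 3 falls, on 225647_s_at, lost its call whichever of the 6 arrays was left out, with differences from -0.21 to -0.30 and adjusted p from 0.0668 to 0.144. The mean of the 4 fell by 0.31 (standard error 0.0478, adjusted p = 0.00377).

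CTSH, a cysteine protease with aminopeptidase activity, was the protease that rose. On its only probe set, 202295_s_at, it read 1.48, 1.35 and 1.29 in LP-1/Cfz and 0.88, 0.88 and 0.96 in LP-1. The rise was 0.46, or 1.38-fold (standard error 0.0706, adjusted p = 0.00511). The suffix marks shared probes, so that CTSH has no value in the fit without such probe sets. Each LP-1/Cfz array was above every LP-1 array. CTSA, CTSD, CTSL, LGMN and TPP1 had 8 probe sets between -0.25 and 0.18, none of which passed, and the lowest adjusted p was 0.0671, for TPP1, the tripeptidyl peptidase. CTSD and CTSL, the endoproteases that with CTSB do most of the lysosome's protein digestion, gave 0.09 and 0.18.

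**Figure D3:**
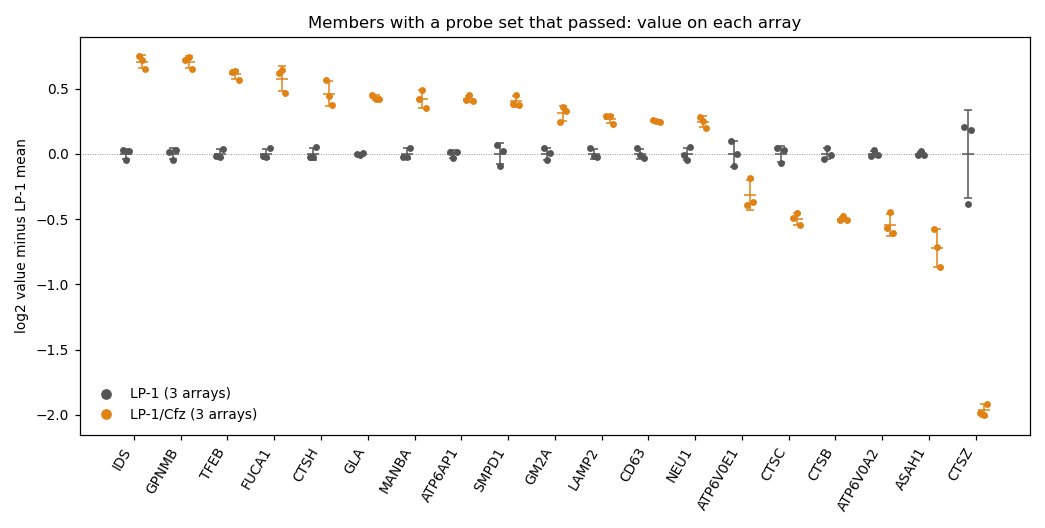
Value on each array (log2, vertical axis, set to 0 at the mean of the LP-1 arrays) of the probe set with the largest difference that passed, for the 19 members with such a probe set. Grey points are the 3 LP-1 and orange points the 3 LP-1/Cfz arrays, with bars for the mean and 1 standard deviation. The lines do not overlap for any of the 19, but only probe sets that passed were drawn, so that this adds no evidence. Most differences lie between 0.25 and 0.7 in size, with CTSZ at -1.97.

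Of the 33 members with several probe sets, 13 had some that passed and none had all. On 7 of the 13 the call rested on 1 probe set: TFEB, FUCA1, SMPD1, CTSZ, GPNMB, LAMP2 and ATP6V0E1. For TFEB, SMPD1 and LAMP2 the others lay on the same side of 0, while for FUCA1, CTSZ and ATP6V0E1 at least 1 lay on the opposite side. GPNMB's second probe set was near 0. Within IDS, GM2A, ASAH1, CTSB and CTSC several probe sets passed in the same direction.

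**Figure D4:**
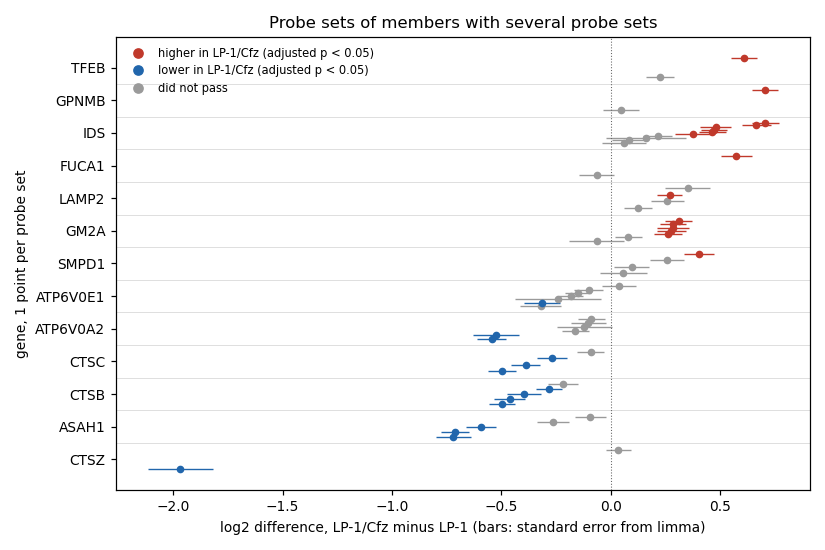
Log2 difference, LP-1/Cfz minus LP-1 (horizontal axis), of each probe set of the 13 members with several probe sets of which at least 1 passed. Bars are standard errors from limma, and colours mark the call as in the plot by role. The CTSZ probe sets lie at -1.97 and 0.04, while those of CTSB lie between -0.50 and -0.22.

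Of the membrane proteins, CD63, LAMP2 and GPNMB rose, each with a probe set that passed. GPNMB, a glycoprotein of lysosomes and melanosomes and a known target of MITF, read 0.38, 0.40 and 0.31 in LP-1/Cfz and -0.33, -0.39 and -0.31 in LP-1 on 201141_at. The lines lay on opposite sides of 0, with a rise of 0.71, or 1.63-fold (standard error 0.0611, adjusted p = 0.000341). On 1554018_at the values were -0.02, 0.02 and 0.05 against -0.06, 0.12 and -0.16, and the lines overlapped (difference 0.05, adjusted p = 0.774). A heat map of the study for these arrays shows GPNMB too, by the same probe set, so that its direction is not independent evidence either.

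CD63, a tetraspanin of late endosomes and exosomes, read 0.07, 0.06 and 0.05 in LP-1/Cfz and -0.15, -0.21 and -0.23 in LP-1, a rise of 0.25 (standard error 0.0581, adjusted p = 0.0296). LAMP2, which takes part in fusion with autophagosomes and in chaperone-mediated autophagy, read -0.44, -0.44 and -0.50 against -0.69, -0.75 and -0.75 on 203041_s_at, a rise of 0.27 (standard error 0.0589, adjusted p = 0.0245). In both the arrays of a line differed by less than 0.1. The 3 other LAMP2 probe sets gave 0.13, 0.26 and 0.35 without passing. Neither CD63 nor LAMP2 passed when LP-1/Cfz replicate 1 or 2 or any 1 LP-1 array was left out, with differences of 0.24 to 0.28 and adjusted p from 0.0735 to 0.123 for CD63, and of 0.26 to 0.29 and from 0.067 to 0.103 for LAMP2. The LAMP2 gene mean of 0.25 was lost under the same omissions (0.21 to 0.26, adjusted p from 0.0663 to 0.0964) and the CD63 gene mean without LP-1 replicate 3 (0.24, adjusted p = 0.0502).

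SCARB2, the receptor that carries glucocerebrosidase to lysosomes, did not pass on any of 4 probe sets. On 201646_at it read 0.14, 0.12 and 0.05 in LP-1/Cfz and -0.05, -0.59 and -0.05 in LP-1, so that LP-1 replicate 2 was far below the other LP-1 arrays. The difference was 0.33 with a standard error of 0.14 (adjusted p = 0.198). On 224983_at it read 0.11, 0.10 and 0.10 against -0.13, -0.14 and -0.07. There the lines did not overlap, and the difference of 0.21 did not pass (standard error 0.0577, adjusted p = 0.0541), although it passed with array weights (adjusted p = 0.0415) and over single-gene probe sets alone (adjusted p = 0.0397). LAMP1 had 4 probe sets between -0.13 and -0.02 and MCOLN1 a single one at 0.07, and none passed.

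By probe set, the proton pump had few changes. Of 35 V-ATPase probe sets 1 rose and 3 fell, or 11.4%. Over all probe sets 11.0% passed in either direction, and 12.7% of those that name 1 gene, so that this count is near the background. By gene the share was higher. Of its 12 genes 2 rose and 2 fell, or 33.3%, where 16.7% of all genes passed. ATP6AP1, the accessory protein Ac45 that helps to assemble and target the pump, has only the probe set 207809_s_at, whose suffix marks shared probes. It read 0.03, 0.07 and 0.02 in LP-1/Cfz and -0.37, -0.42 and -0.37 in LP-1. The arrays of each line agreed within 0.1, and the rise was 0.42, or 1.34-fold (standard error 0.0577, adjusted p = 0.00319). ATP6AP2, the other accessory protein, known also as the prorenin receptor, had 3 probe sets from -0.22 to 0.14 and did not pass.

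ATP6V0A2, the a2 subunit of the V0 sector found on Golgi and endosome membranes, fell on 2 of its 6 probe sets. On 235255_at it read -0.28, -0.16 and -0.32 in LP-1/Cfz and 0.28, 0.32 and 0.28 in LP-1, a fall of 0.54 on the log2 scale (standard error 0.0661, adjusted p = 0.00183). On 205704_s_at it fell by 0.52 (standard error 0.104, adjusted p = 0.0165), though not when LP-1 replicate 1 or 3 was left out (-0.46 and -0.48, adjusted p = 0.0659 and 0.0709). The first of these probe sets had the lines on opposite sides of 0. The remaining 4 gave -0.09 to -0.16 and did not pass, and the mean of the 6 fell by 0.26 (adjusted p = 0.00974), again not without LP-1 replicate 3 (-0.24, adjusted p = 0.0512). ATP6V0A1, which encodes the a1 subunit, gave differences of 0.12 and 0.16, neither of which passed.

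ATP6V0E1, the small e subunit, fell on 1 of 7 probe sets, which read -0.07, 0.14 and -0.04 in LP-1/Cfz and 0.43, 0.23 and 0.32 in LP-1. The difference was -0.32 (standard error 0.0832, adjusted p = 0.0497), barely inside the threshold, and it did not pass when LP-1/Cfz replicate 1 or 3 or any 1 LP-1 array was left out (-0.27 to -0.36, adjusted p from 0.0734 to 0.166). The mean of its 7 probe sets, -0.18, did not pass (adjusted p = 0.103). ATP6V0B and ATP6V0D1, the c″ and d subunits, were at 0.05 and 0.01.

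In the V1 sector 2 genes passed on the gene mean without a probe set that passed. ATP6V1A, the catalytic A subunit, read -0.57, -0.93 and -0.67 in LP-1/Cfz and -0.94, -1.90 and -1.47 in LP-1 on 201971_s_at. The LP-1 arrays spread over almost 1 log2 unit and the closest arrays of the lines nearly met. The difference of 0.71 did not pass (standard error 0.22, adjusted p = 0.0846). It passed without LP-1 replicate 1 (0.96, adjusted p = 0.0148), with the replicate number as a block (0.71, adjusted p = 0.0168) and after a further quantile normalization (0.89, adjusted p = 0.0454). With any other 1 array left out it did not pass (adjusted p from 0.0886 to 0.205). The other ATP6V1A probe set gave 0.20 (adjusted p = 0.181), and the mean of both rose by 0.46 (standard error 0.0976, adjusted p = 0.0161). That mean did not pass without LP-1/Cfz replicate 1 (0.42, adjusted p = 0.0567), nor without 201971_s_at, which leaves 0.20 (adjusted p = 0.146).

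ATP6V1B2, the B2 subunit with which the A subunit forms the catalytic ring, read -0.08, -0.11 and -0.17 in LP-1/Cfz and 0.08, 0.08 and 0.12 in LP-1 on its only probe set. The lines did not overlap. The difference of -0.21 passed in the fit over genes (adjusted p = 0.023) and not in that over probe sets (adjusted p = 0.0627). Over genes it was lost without LP-1/Cfz replicate 2 or any 1 LP-1 array (-0.20 to -0.22, adjusted p from 0.0511 to 0.0975). ATP6V1C1, ATP6V1D and ATP6V1H had 11 probe sets between -0.14 and 0.28, none of which passed.

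The members' calls were also set beside those of the genes around them, because calls on some chromosomes ran mostly in 1 direction. On chromosome X lie 6 members, and there 23.4% of 696 measured genes rose and 5.89% fell. Of them GLA, IDS, LAMP2 and ATP6AP1 rose, none fell, and TFE3 and ATP6AP2 did not pass. Of the 20 nearest measured genes 8 rose and none fell around GLA, 9 and none around LAMP2, 9 and none around ATP6AP1, and 4 and none around IDS. Over all genes the median was 1 neighbour higher and 2 lower, and 1.24% of genes had at least 8 neighbours that rose. The median log2 difference of GLA's neighbours was 0.18, below its own 0.43.

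Chromosome 8 showed the reverse, with 3.49% of 716 genes higher and 19.7% lower. Its 5 members included 3 that fell on the gene mean, ASAH1, CTSB and ATP6V1B2, and none that rose. ASAH1 and CTSB are separated by 23 measured genes and ASAH1 and ATP6V1B2 by 9, so that these 3 lie in the same region. ASAH1 had 8 lower and 1 higher gene among its 20 neighbours, CTSB 5 lower and none higher, and ATP6V1B2 4 lower and none higher. The windows of ASAH1 and ATP6V1B2 overlap, and each of these genes counts as a lower neighbour of the other. The remaining lower neighbours of ATP6V1B2 are also neighbours of ASAH1, so that the counts of these genes are not separate. Chromosome 10 leaned further, with 25.1% of 777 genes lower and 3.09% higher, but its 2 members, LIPA and PSAP, did not pass. On chromosome 12, where 16.1% of 1036 genes fell and 9.46% rose, ATP6V0A2 had 7 lower neighbours, a count reached by 3.37% of genes. What the position of these members contributes to their calls was not tested.

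Some other members moved among neighbours that mostly did not. TFEB had 1 higher neighbour and none lower, with a neighbour median of 0.01, against its own 0.42. CTSH had 1 higher and none lower, CTSC 2 higher and none lower, and CD63 none in either direction. Others had more neighbours that fell. FUCA1 and MANBA, which rose, had 1 higher each, with 6 and 4 lower. CTSZ, which fell, had 1 higher and 4 lower. Without chromosomes X and 8, 10 of 39 members rose and 3 fell, where all genes there gave 6.21% higher and 9.81% lower.

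**Figure D5:**
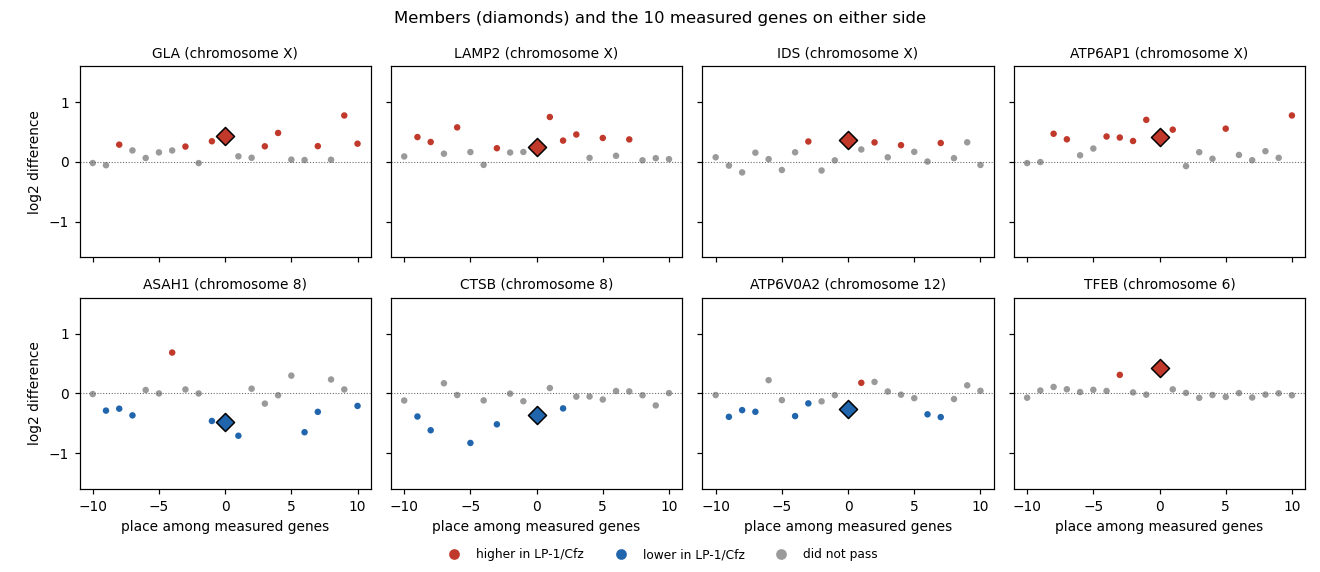
Log2 difference of the gene mean, LP-1/Cfz minus LP-1 (vertical axis), of 8 members, drawn as diamonds at place 0, and of the 10 measured genes on either side in chromosomal order (horizontal axis). Red rose, blue fell and grey did not pass. Around GLA, LAMP2 and ATP6AP1 8 or 9 of the 20 neighbours rose, while around TFEB 1 did.

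Of 78 other genes of the lysosome that are not members, 66 were measured, of which 7 rose and 4 fell, with a median log2 difference of 0.05. The share that passed in either direction, 16.7%, was the same as over all genes, 16.7%. Whether the shares also match under other settings was not tested. SLC17A5, which exports sialic acid from the lysosome, rose by 0.68 (standard error 0.0535, adjusted p = 0.000144), with 0.48, 0.47 and 0.43 in LP-1/Cfz against -0.26, -0.25 and -0.14 in LP-1. CTSO, a further cysteine cathepsin, fell by 0.95 (standard error 0.0612, adjusted p = 5.17e-05), with -0.42, -0.47 and -0.58 against 0.43, 0.42 and 0.53. In both genes the lines lay on opposite sides of 0. NPC2, which hands cholesterol on for export, rose by 0.29, and so did the pump subunits ATP6V1G2 and ATP6V0E2, by 0.39 and 0.24, and PLA2G15, a phospholipase, by 0.24.

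Of 16 measured genes listed for the regulation of TFEB, 2 rose, 1 fell and 13 did not pass. The share that passed, 18.8%, was near the 16.7% of all genes. RRAGA and LAMTOR4, parts of the machinery that brings mTORC1 to the lysosome, rose by 0.26 and 0.22. PPP3CB, a catalytic subunit of the phosphatase calcineurin, which can release TFEB to the nucleus, fell by 0.48 (adjusted p = 0.000446). These arrays measured RNA only, and neither the place of TFEB in the cell nor its phosphorylation can be read from them. LAPTM4B and OSTM1, proteins of the lysosomal membrane, fell by 0.31 and 0.22. None of the 9 measured genes that sort enzymes to the lysosome, the mannose phosphate receptors among them, passed in limma's fit over genes, although 4 had an unadjusted p under 0.05, 3 of them higher and 1 lower.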

How the data were processed

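RNA of 3 LP-1/Cfz and 3 LP-1 samples was measured on Affymetrix U133 Plus 2.0 arrays. As deposited by the authors, the table holds log2 values of 54613 probe sets, for which the submitters' notes name RMA with no version, centred per probe set on a baseline not given in the sources used here. Read as log2, they gave 174 of 174 fold changes listed by the study within 0.015. Of the probe sets 41091 name 1 gene, 1801 several and 11721 none, and values of several-gene probe sets were not used for any member.

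Both lines entered limma 3.58.1 (R 4.3.3; lmFit, eBayes, no covariate) over all probe sets, and over 19775 genes as the mean of their single-gene probe sets, with Benjamini-Hochberg adjustment over each table. The fits were tested on simulated data. With 3 against 3 arrays an exact two-sided permutation test cannot give a p under 0.1, and the number of arrays limits the precision. Neighbours were the 10 measured genes on either side in RefSeq order (GRCh38.p14). Promoter sequences are RefSeq's. Members and lists were chosen with earlier results of these data known. GLA, TFEB and every member with a called probe set are named, with further members by counts and ranges. ATP6V1A, ATP6V1B2, SCARB2 and the other lysosome genes were named after their values were seen.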

Additional observations from a re-analysis of the deposited data

How the results depend on the processing

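No member that passed changed direction under any setting run. Requiring a fold change above 1.2 in limma's test left 5 member probe sets higher and 4 lower (from 22 and 14), no member gene higher and 1 lower (from 14 and 6), and 1 other lysosome gene higher and 2 lower (from 7 and 4). A fold change of 1.7 or more with no test left 0 and 1 probe sets, 0 and 1 member genes and 0 and 1 other genes. Without x_at and s_at probe sets, 9 probe sets rose and 6 fell, 7 member genes rose and 5 fell, and 4 other genes rose and 5 fell. Only 18 of the 36 member probe sets that passed remained in that fit, and 15 of them kept their call. A further quantile normalization gave 11 other genes higher and array weights 14, with 4 lower in each. No shares over all genes are given for the settings of this section, so that its counts cannot be set beside them. With 1 array left out at a time, 13 to 25 member probe sets rose and 9 to 13 fell, 10 to 14 member genes rose and 4 to 6 fell, and 3 to 12 other lysosome genes rose and 3 to 5 fell; the highest counts of rises came without LP-1/Cfz replicate 3. Of the 36 member probe sets that passed, 22 did so in all 6 such fits, 13 in some and 1, of CTSC, in none. Among probe sets that did not pass, GPNMB 1554018_at ran from -0.015 (without LP-1 replicate 3) to 0.12, and SCARB2 215754_at from -0.0027 (without LP-1/Cfz replicate 3; -0.0011 without LP-1 replicate 1) to 0.088. The cause of these changes was not tested.

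With the replicate number as a block, 15 member probe sets rose and 11 fell, 12 member genes rose and 5 fell, and 5 other genes rose and 4 fell; 25 of the 36 kept their call. Deviations of arrays that share a number correlated at -0.05, 0.13 and -0.01, so that the numbers were not taken to pair the samples.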
